A study of Mus musculus with 6 samples.

Results

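The insulin-like growth factor axis comprised 10 genes, chosen by name with earlier results of these data known. They are the ligands Igf1 and Igf2, the receptors Igf1r and Igf2r, and the binding proteins Igfbp2, Igfbp3, Igfbp4, Igfbp5, Igfbp6 and Igfbp7. All 10 were measured, by 23 of the 22626 probe sets tested and as 10 of 12393 genes. They were compared in whole lungs of 3 mice given bleomycin and 3 mice given saline, with an array for each mouse. The bleomycin lungs, D, E and F, came from mice given bleomycin at 1 mg/kg body weight in 50 µl of saline, and the saline lungs, A, B and C, from mice given saline. All mice were labelled as male wildtype C57BL/6J, with an age of 8 to 10 weeks, and lungs were taken at day 14. Bleomycin, a DNA-damaging drug, is widely used to produce lung fibrosis in mice, and the arrays addressed its fibrotic phase. Delivery was oropharyngeal by the design text but intratracheal by the sample labels, which leaves the route uncertain. The trachea and major airways were cut away before the RNA was extracted.

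Insulin-like growth factor 1 (IGF-1) is a peptide hormone made by the liver and, locally, by macrophages and mesenchymal cells such as fibroblasts. It acts through the receptor tyrosine kinase encoded by Igf1r, which signals through insulin receptor substrates, PI3-kinase and AKT to growth and survival. IGF-2 binds the same receptor and is cleared by the receptor encoded by Igf2r, which also carries mannose 6-phosphate-tagged enzymes to lysosomes. Most of both ligands outside cells is held by binding proteins, which prolong their life, limit or deliver them to the receptor, and release them when proteases cut the binding protein.

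Of the 10 genes, 3 rose (Igf1, Igfbp2 and Igfbp4), 2 fell (Igfbp3 and Igfbp6) and 5 did not pass the test after bleomycin (limma, Benjamini-Hochberg adjusted p under 0.05 over all probe sets). Over all 12393 genes, 3.70% were higher and 1.90% lower, 5.60% in all. The median difference of the 10 genes was -0.06 log2 units, against -0.04 over all genes. By role, 1 of 2 ligands rose, 0 of 2 receptors passed, and among 6 binding proteins 2 rose and 2 fell. The 3 bleomycin lungs lay wholly above the 3 saline lungs for 3 of the genes and wholly below them for 4, against 13.3% of all genes wholly above, 14.6% wholly below and 27.9% in either direction. With bleomycin D left out, 2 genes were called higher, and with any other single array left out, 1. The number lower was 1 when bleomycin F, saline A or saline C was left out, and 2 otherwise.

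The promoter windows of the 5 genes that passed are shown because those genes moved in opposite directions. Each runs from 250 bases before to 50 bases after a transcript start listed by RefSeq (GRCm38.p6), 5′ to 3′. All 10 genes matched the RefSeq promoter table, and for Igfbp2 the first of its 2 listed windows is given. Capitals mark matches on either strand to 4 motifs: TATAAA or TATATA for the TATA box, CCAAT for the box of that name, GGGCGG for the GC box and TGANTCA for the AP-1 site. Matches did not overlap in these windows.
Igf1, chr10:87860861-87861160, plus strand: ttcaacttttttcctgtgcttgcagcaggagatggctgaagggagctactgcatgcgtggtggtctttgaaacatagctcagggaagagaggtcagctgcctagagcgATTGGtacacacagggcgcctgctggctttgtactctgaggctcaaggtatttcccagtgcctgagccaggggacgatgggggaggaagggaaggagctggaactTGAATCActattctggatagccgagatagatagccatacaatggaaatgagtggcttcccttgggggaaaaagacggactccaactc
Igfbp2, chr1:72824230-72824529, plus strand: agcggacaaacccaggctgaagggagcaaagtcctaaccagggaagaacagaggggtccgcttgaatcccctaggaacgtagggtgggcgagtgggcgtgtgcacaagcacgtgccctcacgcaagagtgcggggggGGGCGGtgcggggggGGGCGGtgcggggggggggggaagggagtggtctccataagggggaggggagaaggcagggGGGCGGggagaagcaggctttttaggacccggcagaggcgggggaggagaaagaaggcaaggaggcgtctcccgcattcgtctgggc
Igfbp4, chr11:99040994-99041293, plus strand: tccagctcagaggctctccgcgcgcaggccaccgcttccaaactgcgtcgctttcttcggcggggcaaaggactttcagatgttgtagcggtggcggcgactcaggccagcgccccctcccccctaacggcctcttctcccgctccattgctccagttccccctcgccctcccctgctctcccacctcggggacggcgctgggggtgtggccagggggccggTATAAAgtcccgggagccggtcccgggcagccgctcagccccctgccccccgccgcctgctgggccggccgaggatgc
Igfbp3, chr11:7213874-7214173, minus strand: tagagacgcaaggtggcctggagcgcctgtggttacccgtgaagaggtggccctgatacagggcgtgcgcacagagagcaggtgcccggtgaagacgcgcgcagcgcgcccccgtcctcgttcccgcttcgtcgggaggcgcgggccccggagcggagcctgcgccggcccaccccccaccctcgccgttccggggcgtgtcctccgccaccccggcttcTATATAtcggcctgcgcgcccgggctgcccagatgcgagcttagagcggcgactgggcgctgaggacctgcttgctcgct
Igfbp6, chr15:102143936-102144235, plus strand: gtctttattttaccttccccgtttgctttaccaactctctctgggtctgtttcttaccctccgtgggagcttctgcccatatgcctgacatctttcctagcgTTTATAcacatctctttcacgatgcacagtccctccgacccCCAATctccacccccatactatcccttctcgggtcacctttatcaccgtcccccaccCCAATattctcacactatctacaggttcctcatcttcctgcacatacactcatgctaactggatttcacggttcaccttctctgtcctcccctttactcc
Among the 3 genes that rose, the Igf1 window held 1 CCAAT box and 1 AP-1 site, which lay 37 bases before the transcript start. The Igfbp2 window held 3 GC boxes, and its second listed window, not printed, held an AP-1 site 39 bases before the start, while the Igfbp4 window held a TATA box 28 bases before the start. Of the 2 genes that fell, Igfbp3 had a TATA box 30 bases before the start, and Igfbp6 had a TATA box match at 148 bases and 2 CCAAT boxes. Of 32851 windows of the same length in the table, 17.1% held the TATA box, 37.4% the CCAAT box, 35.7% the GC box and 7.81% the AP-1 site. None of the 4 motifs was in all 3 printed windows of the genes that rose.

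A few facts of the arrays bear on these values. The array labelled saline B carried Xist, the transcript of the inactive X chromosome, at 11.40 log2 units, against 7.23 to 7.88 on the other 5 arrays. It carried the Y-linked gene Eif2s3y at 4.05, against 7.23 to 8.02. Both go against its label of male, so key results are also given without it. Bleomycin D stood farthest along the first principal component, which held 55.4% of the variance, with a score of 44.3, against 12.9 for E and 19.8 for F, and -28.6 to -21.4 for the saline arrays. Values are log2 units after the authors' RMA, and their precision is limited by the 3 arrays per group. A difference in whole lung cannot tell more or fewer cells of a type from more or less RNA per cell.

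**Figure D1:**
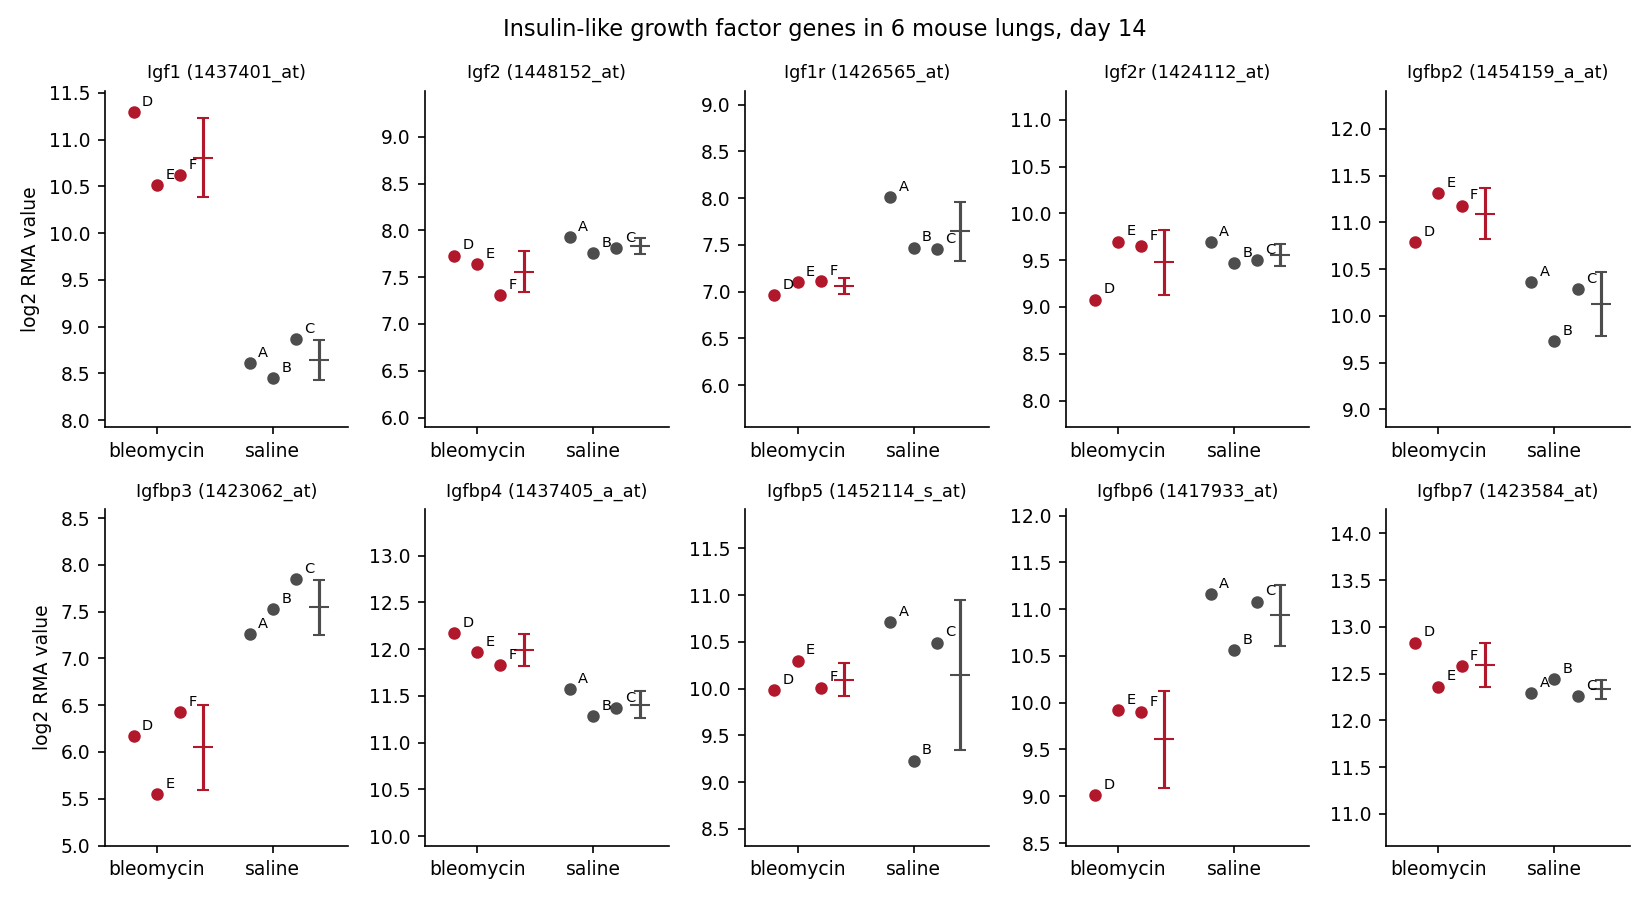
Log2 RMA value of each of the 10 genes on each array, read by the probe set with the highest mean (named above each panel). Letters name the mice, bars give the mean and SD of 3 arrays, and every panel spans the same number of log2 units. Igf1 sits between 10.51 and 11.29 in bleomycin lungs and between 8.45 and 8.87 in saline lungs, while Igf2r overlaps.

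Igf1, the ligand best known as the mediator of growth hormone, rose 4.49-fold. On its brightest probe set it stood at 11.29, 10.51 and 10.62 log2 units in bleomycin lungs D, E and F, against 8.61, 8.45 and 8.87 in saline lungs A, B and C. Every bleomycin lung lay above every saline lung, and bleomycin D was the highest. The means were 10.81 ± 0.42 in bleomycin and 8.64 ± 0.21 in saline lungs (SD, n = 3 each), a difference of 2.17 ± 0.21 log2 units (SE, limma adjusted p = 0.00171). By size of rise it stood at position 26 among 12393 genes.

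The rise of Igf1 was seen on all 3 of its probe sets. On the second it stood at 9.92, 9.47 and 9.73 in bleomycin lungs D, E and F, against 7.19, 7.42 and 7.75 in saline lungs A, B and C, a difference of 2.26 ± 0.17 (SE, limma adjusted p = 7.87e-04). On the third it stood at 9.0, 8.51 and 8.55 in bleomycin lungs, against 7.07, 6.97 and 7.20 in saline lungs, a difference of 1.61 ± 0.15 (SE, limma adjusted p = 0.00144). The groups did not overlap on any of them. The third moved by 0.56 log2 units less than the brightest (95% interval 0.22 to 0.89), which did not pass over all 7987 probe set pairs (limma adjusted p = 0.141). Probe sets of a gene were read on the same RNA from the same mice, so they are not independent evidence.

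The call of Igf1 held in each fit with 1 array left out, with differences of 1.92 to 2.31 log2 units. Without saline B the difference was 2.07 (limma adjusted p = 0.00717) and without bleomycin D it was 1.92 (limma adjusted p = 0.0014).

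Igf2, the imprinted fetal growth factor expressed from the paternal allele, did not pass. It stood at 7.73, 7.64 and 7.31 log2 units in bleomycin lungs D, E and F, against 7.93, 7.76 and 7.81 in saline lungs A, B and C. The groups did not overlap, but the gap between the lowest saline and the highest bleomycin lung was within the spread of either group. The difference was -0.28 ± 0.13 (SE, 95% interval -0.58 to 0.03, limma adjusted p = 0.276). Its other probe set was dim, with 5.71 ± 0.07 in bleomycin and 5.91 ± 0.27 in saline lungs (SD, n = 3 each), and those groups overlapped.

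Neither receptor passed the test. Igf1r, the receptor that signals for both ligands, stood at 6.96, 7.10 and 7.11 log2 units in bleomycin lungs D, E and F, against 8.01, 7.47 and 7.45 in saline lungs A, B and C. All bleomycin lungs lay below all saline lungs, and saline A was the highest. The difference was -0.58 ± 0.16 (SE, 95% interval -0.95 to -0.22, limma adjusted p = 0.0797). Without saline A it was -0.40 (limma adjusted p = 0.108). The other Igf1r probe set overlapped between the groups, with a difference of -0.04 ± 0.14 (SE, limma adjusted p = 0.888). The difference between the 2 probe sets was -0.54 (95% interval -1.02 to -0.05), which did not pass over all pairs (limma adjusted p = 0.296).

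Igf2r, the clearance receptor for IGF-2, stood at 9.08, 9.70 and 9.65 log2 units in bleomycin lungs D, E and F, against 9.69, 9.47 and 9.50 in saline lungs A, B and C. The groups overlapped, and bleomycin D alone was low. The difference was -0.08 ± 0.17 (SE, 95% interval -0.47 to 0.32, limma adjusted p = 0.832), and without bleomycin D it was 0.12. The other probe set differed by 0.06 ± 0.14 (SE, limma adjusted p = 0.85).

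**Figure D2:**
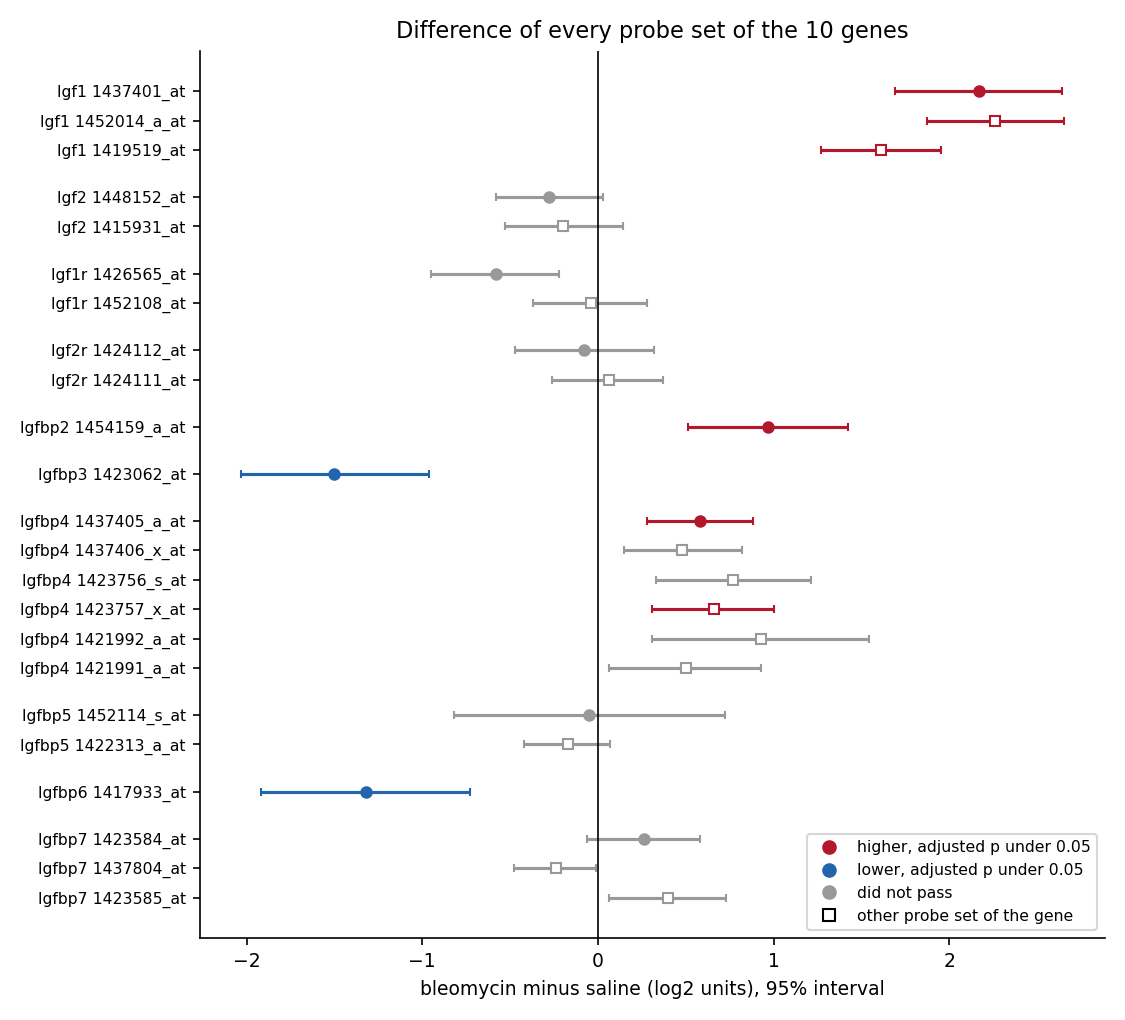
Difference of bleomycin minus saline in log2 units for all 23 probe sets, with the 95% interval of the moderated fit. Filled circles read the gene, open squares are its other probe sets, and colour marks the call. All 3 Igf1 probe sets lie to the right of 0 (1.61 to 2.26), and the single probe sets of Igfbp3 (-1.50) and Igfbp6 (-1.32) to the left.

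The binding proteins moved in both directions. Igfbp3, which carries most of the circulating ligand together with the acid-labile subunit, fell most. It stood at 6.17, 5.55 and 6.43 log2 units in bleomycin lungs D, E and F, against 7.26, 7.53 and 7.85 in saline lungs A, B and C. The groups did not overlap, and bleomycin E was the lowest. The means were 6.05 ± 0.45 in bleomycin and 7.55 ± 0.30 in saline lungs (SD, n = 3 each), a difference of -1.50 ± 0.23 log2 units (SE, limma adjusted p = 0.0127). The bleomycin mean lay close to 6, and probe sets under 6 in both groups were counted as dim. Igfbp3 was not among these, but signal over background could not be examined, so the size of this fall is uncertain. Its call held with any single array left out, with differences of -1.68 to -1.24 and an adjusted p of up to 0.0449, and without saline B the difference was -1.50 (limma adjusted p = 0.0359).

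Igfbp6, a binding protein with a preference for IGF-2, also fell. It stood at 9.01, 9.92 and 9.90 log2 units in bleomycin lungs D, E and F, against 11.16, 10.56 and 11.08 in saline lungs A, B and C. The groups did not overlap, with bleomycin D the lowest and saline B the lowest of its group. The means were 9.61 ± 0.52 in bleomycin and 10.93 ± 0.33 in saline lungs (SD, n = 3 each), a difference of -1.32 ± 0.26 (SE, limma adjusted p = 0.0295). The level was 0.40 times that in saline lungs. Without saline B the difference was -1.51 (limma adjusted p = 0.0323), and without bleomycin D it was -1.02 (0.0325). The call was lost without saline A (limma adjusted p = 0.104), saline C (0.0899) or bleomycin F (0.0542).

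Igfbp2, the binding protein that can also attach to integrins through an RGD sequence, rose 1.95-fold. It stood at 10.79, 11.31 and 11.18 log2 units in bleomycin lungs D, E and F, against 10.36, 9.73 and 10.29 in saline lungs A, B and C. The groups did not overlap, and saline B was the lowest. The means were 11.09 ± 0.27 in bleomycin and 10.13 ± 0.35 in saline lungs (SD, n = 3 each), a difference of 0.97 ± 0.20 (SE, limma adjusted p = 0.0339). The call held without bleomycin D (1.12, limma adjusted p = 0.0285) and was lost without any other single array (limma adjusted p of 0.063 to 0.109). Without saline B the difference was 0.77 (limma adjusted p = 0.063).

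Igfbp4, a binding protein that inhibits the ligands until the protease encoded by Pappa cuts it, rose 1.5-fold on its brightest probe set. That probe set stood at 12.17, 11.97 and 11.83 log2 units in bleomycin lungs D, E and F, against 11.57, 11.28 and 11.37 in saline lungs A, B and C. The groups did not overlap, and the means were 11.99 ± 0.17 in bleomycin and 11.41 ± 0.15 in saline lungs (SD, n = 3 each). The difference was 0.58 ± 0.13 (SE, limma adjusted p = 0.0441). Of its 6 probe sets, 2 passed, and on each of the 6 the bleomycin lungs lay above the saline lungs, with differences of 0.48 to 0.93. Over all probe sets, 3.29% were called higher, 1.45% lower and 4.74% in either direction, and 26.8% had groups that do not overlap. The brightest probe set did not pass in any fit with 1 array left out (limma adjusted p of 0.0694 to 0.122). Without saline B its difference was 0.52 (0.111), and with arrays centred on ribosomal protein genes it was 0.56 (0.0923).

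Igfbp5, a binding protein that attaches to extracellular matrix, did not pass. Its brightest probe set stood at 9.98, 10.30 and 10.01 log2 units in bleomycin lungs D, E and F, against 10.71, 9.23 and 10.49 in saline lungs A, B and C. Saline B lay below all other lungs, and the other 2 saline lungs lay above all bleomycin lungs. The difference was -0.05 ± 0.34 (SE, 95% interval -0.82 to 0.72, limma adjusted p = 0.954), and without saline B it was -0.50 (limma adjusted p = 0.126). The other probe set differed by -0.17 ± 0.11 (SE, limma adjusted p = 0.383), with saline B at 8.90, beside 8.90 and 8.93 in the other saline lungs. On it the bleomycin lungs D, E and F stood at 8.60, 8.83 and 8.77, all below the saline lungs.

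Igfbp7, a relative with low affinity for the ligands that is made by vascular cells, did not pass either. Its brightest probe set stood at 12.83, 12.36 and 12.58 log2 units in bleomycin lungs D, E and F, against 12.29, 12.44 and 12.26 in saline lungs A, B and C, and the groups overlapped. The difference was 0.26 ± 0.14 (SE, 95% interval -0.06 to 0.58, limma adjusted p = 0.323). Its other probe sets differed by 0.40 ± 0.15 and -0.24 ± 0.10 (SE, limma adjusted p of 0.169 and 0.222), in opposite directions. The brightest minus the one with the negative sign gave 0.50 (95% interval 0.09 to 0.91), which did not pass over all pairs (limma adjusted p = 0.26).

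In all, 13 pairs of probe sets from 7 of the genes were compared, and 0 passed in limma, against 0.676% of all 7987 pairs. At an unadjusted p under 0.05 there were 3, from Igf1, Igf1r and Igfbp7, and the share of all pairs at that level was not counted. No other tool was run on these pairs.

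**Figure D3:**
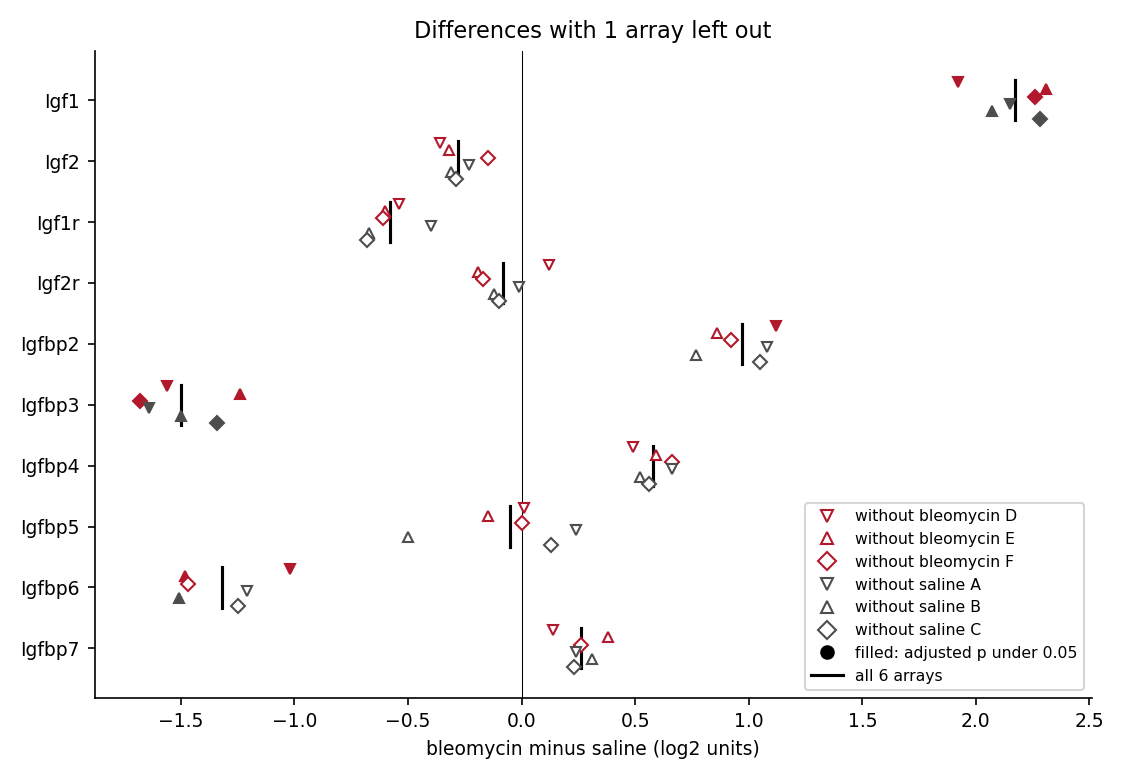
Difference of bleomycin minus saline in log2 units for each gene with all 6 arrays (line) and with each array left out (symbols), filled where the adjusted p was under 0.05. The symbols of Igf1 and Igfbp3 are all filled, those of Igfbp4 all open, and Igfbp5 moves to -0.50 without saline B.

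Other genes of insulin-like growth factor signalling were described by 7 lists, with 100 of 117 genes measured beyond the 10. Read by the brightest probe set, 6 of these rose and 3 fell, that is 6.0% and 3.0%, against 3.70% and 1.90% of all genes. Their median difference was -0.06 log2 units. The number higher was 3 without saline A. The number lower was 0 without saline A, 1 without bleomycin D and 1 without bleomycin F.

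Proteases that can cut binding proteins, and their inhibitors, held 4 of the 6 rises: 4 of 17 rose and 0 fell. They are Mmp3, Ctsd, Mmp14 and Mmp2, better known for degrading matrix or, for Ctsd, lysosomal protein. Ctsd, the lysosomal aspartic protease cathepsin D, stood at 12.69, 12.94 and 13.03 log2 units in bleomycin lungs D, E and F, against 11.17, 11.45 and 11.49 in saline lungs A, B and C. It rose 2.86-fold without overlap (limma adjusted p = 0.00116). Mmp14, a membrane-bound metalloprotease, rose 2.81-fold (10.41 ± 0.30 in bleomycin and 8.92 ± 0.21 in saline lungs, SD, n = 3 each, limma adjusted p = 0.0035). Mmp2, the gelatinase that it activates, rose 2.29-fold (limma adjusted p = 0.00823). Mmp3, stromelysin, rose 2.91-fold (limma adjusted p = 0.0104, and 0.0612 without saline A). Pappa differed by 0.20 ± 0.16 (SE, 95% interval -0.17 to 0.57, limma adjusted p = 0.528).

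Among 12 other carriers and proteins with a related binding domain, 1 rose and 1 fell. Ccn4, a matricellular protein of the CCN family, rose 1.88-fold (8.09 ± 0.34 in bleomycin and 7.18 ± 0.21 in saline lungs, SD, n = 3 each, limma adjusted p = 0.0317). It passed without bleomycin E but not without any other single array (0.0667 to 0.108). The other probe set of Ccn4 did not pass. Esm1, a proteoglycan of endothelial cells, fell by 0.67 log2 units at low values (4.74 ± 0.26 in bleomycin and 5.41 ± 0.18 in saline lungs, SD, n = 3 each, limma adjusted p = 0.0498). It did not pass with any single array left out (0.0691 to 0.119).

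Of 13 genes around the insulin and growth hormone receptors, 1 rose and 0 fell. Socs3, a feedback inhibitor of cytokine receptors, stood at 11.44, 10.91 and 10.61 log2 units in bleomycin lungs D, E and F, against 9.24, 8.92 and 9.80 in saline lungs A, B and C. It rose 3.18-fold without overlap (limma adjusted p = 0.0122, and 0.068 without saline A). The insulin receptor gene Insr differed by -0.18 ± 0.11 (SE, limma adjusted p = 0.368).

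Of 34 genes of the adaptors and the PI3-kinase, AKT and mTOR pathway, 0 passed in limma on the brightest probe set. The other probe set of Grb2 passed, while its brightest differed by 0.18 ± 0.17 (SE, limma adjusted p = 0.593). Among brightest probe sets, the difference of largest size was that of Irs1, the first substrate of the receptor. Irs1 stood at 8.62, 9.24 and 9.18 log2 units in bleomycin lungs D, E and F, against 10.06, 9.61 and 9.67 in saline lungs A, B and C. The groups did not overlap, and the difference was -0.76 ± 0.19 (SE, limma adjusted p = 0.0618). It passed when dim probe sets were left out (limma adjusted p = 0.0467), after a second quantile normalization (0.0422) and with probe sets of a gene averaged (0.046). Irs1 has 1 probe set, so averaging left its own difference at -0.76. It did not pass with any single array left out (limma adjusted p of 0.0643 to 0.144). Nor did it with array weights (0.0547), a trended robust prior (0.0512) or centring on ribosomal protein genes (0.0723). These tests measure transcripts and not phosphorylation of the pathway.

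Among 14 target genes of FOXO factors, which AKT holds out of the nucleus, 0 rose and 1 fell. Klf15, a transcription factor of amino acid and lipid metabolism, stood at 7.44, 7.74 and 7.37 log2 units in bleomycin lungs D, E and F, against 9.41, 9.17 and 8.47 in saline lungs A, B and C. It fell by 1.5 log2 units (limma adjusted p = 0.0112, and 0.0545 without saline A). Of 11 other imprinted growth genes, 1 fell: Cdkn1c, an inhibitor of the cell cycle, by 0.57 (limma adjusted p = 0.0371). It passed without saline C but not without any other single array (0.0802 to 0.0983). The brightest probe sets of Ndn and Slc38a4, also imprinted growth genes, did not pass, but 1 other probe set of each did. Mest and Plagl1, other imprinted genes of that list, differed by 1.06 ± 0.25 and -0.81 ± 0.19 (SE, limma adjusted p of 0.0513 and 0.0534), in opposite directions. Of 2 genes that bind the Igf2 messenger RNA, 0 passed, with Igf2bp3 at -0.22 ± 0.13 (SE, limma adjusted p = 0.37).

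**Figure D4:**
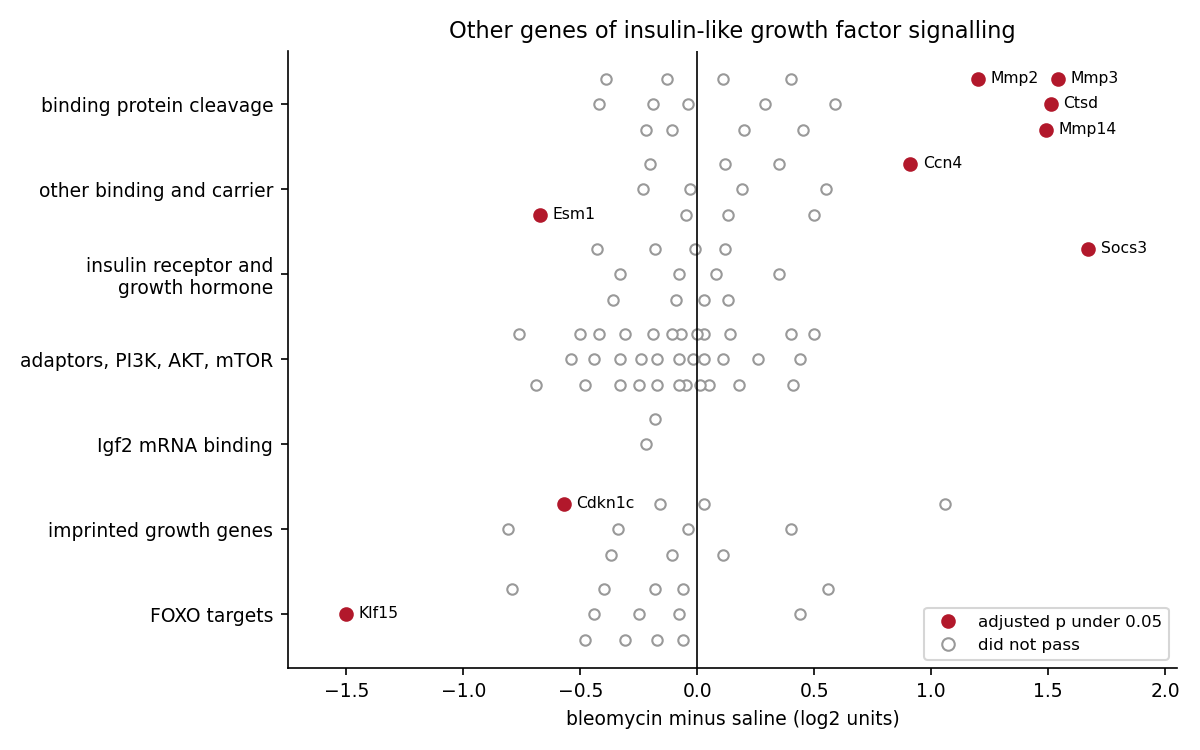
Difference of bleomycin minus saline in log2 units for each measured gene of the 7 lists. Each point is a gene read by its brightest probe set, filled for an adjusted p under 0.05. The 4 called proteases lie between 1.20 and 1.54, and no gene of the adaptor and PI3-kinase list is filled.

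Markers of several cell types differed between the groups as well, and they are given beside the genes because macrophages and fibroblasts make Igf1. Of 19 macrophage markers, 14 rose and 0 fell, and 12 to 14 rose with 1 array left out. Their mean level was 10.38 to 10.53 log2 units in bleomycin lungs, against 8.80 to 9.02 in saline lungs, and bleomycin D had the highest of these as well as the highest Igf1. For the other 2 bleomycin lungs the order was opposite, with macrophage means of 10.42 in E and 10.38 in F and Igf1 at 10.51 in E and 10.62 in F. The brightest macrophage markers, Lyz2 and Chil3, differed by 0.14 ± 0.11 and 0.26 ± 0.18 (SE, limma adjusted p of 0.499 and 0.447). The dimmest, Aif1, averaged 7.33 over the 6 arrays, and no value is 0 on this scale. The part of macrophages in the rise of Igf1 was not tested.

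Of 19 fibroblast markers, 4 rose and 3 fell. Their mean level was 10.46 to 10.78 in bleomycin lungs, against 10.26 to 10.51 in saline lungs, and these ranges overlap. The 4 that rose were the collagen genes Col1a1 (by 2.10 log2 units, limma adjusted p = 0.0164), Col3a1 (1.12, 0.0152) and Col1a2 (1.0, 0.0174) and the matrix proteoglycan gene Lum (1.24, 0.0225). The other probe set of Col1a1 did not pass, while those of Col3a1 and Col1a2 did. The 3 that fell were Inmt, Ces1d (by 0.90 log2 units, limma adjusted p = 0.0323) and Tcf21 (by 0.80 log2 units, limma adjusted p = 0.0302). Of the 2 brightest, Inmt, a methyltransferase of alveolar fibroblasts, fell by 1.41 log2 units (limma adjusted p = 0.0225), and Vim, the intermediate filament protein vimentin, differed by 0.31 ± 0.14 (SE, limma adjusted p = 0.24). The fibroblast counts changed with the array left out, with 0 higher and 1 lower when bleomycin F was left out. Omitting saline A gave 1 higher and 0 lower, omitting saline B gave 2 higher and 0 lower, and omitting saline C left 1 lower.

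Beside the falls of Igfbp3 and Igfbp6, some markers of endothelium and of club and ciliated cells fell, but most did not pass. Of 20 endothelial markers, 0 rose and 4 fell (0 without saline A), with a mean level of 10.30 to 10.51 in bleomycin lungs, against 10.67 to 10.93 in saline lungs. The brightest, Vwf and Plvap, differed by 0.07 ± 0.13 and -0.20 ± 0.10 (SE, limma adjusted p of 0.808 and 0.323). Of 9 club and ciliated markers, 0 rose and 3 fell (0 when saline A, bleomycin D or bleomycin F was left out, and 1 when saline B was). Their mean level was 10.89 to 11.07 in bleomycin lungs, against 11.29 to 11.56 in saline lungs. The parts of these cells in either fall were not tested.

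For 4 further lists the mean levels overlapped between the groups or met. Alveolar type 1 markers had a mean of 10.76 to 11.11 in bleomycin lungs, against 11.11 to 11.39 in saline lungs, with 0 of 9 higher and 1 lower (Hopx, which fell by 0.44 log2 units, limma adjusted p = 0.0466). The other probe set of Hopx did not pass. Alveolar type 2 markers had 11.73 to 12.21, against 12.15 to 12.27. Smooth muscle and pericyte markers had 8.52 to 8.91, against 8.57 to 8.95, with 1 of 12 higher and 0 lower. The 1 that rose was Rgs5, by 0.93 log2 units on its brightest probe set (limma adjusted p = 0.0144), and its other probe sets did not pass. Mesothelial markers had 8.51 to 8.73, against 8.13 to 8.69. Saline B, the lowest saline lung for 7 of the 10 genes (all but Igf1r, Igfbp3 and Igfbp7), also had the lowest mesothelial mean (8.13, against 8.57 and 8.69 in the other saline lungs). It had the lowest fibroblast mean too (10.26, against 10.49 and 10.51). High levels of Sftpc (14.16 ± 0.17 in bleomycin and 14.36 ± 0.03 in saline lungs, SD, n = 3 each), the surfactant gene of type 2 cells, match the lung label.

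**Figure D5:**
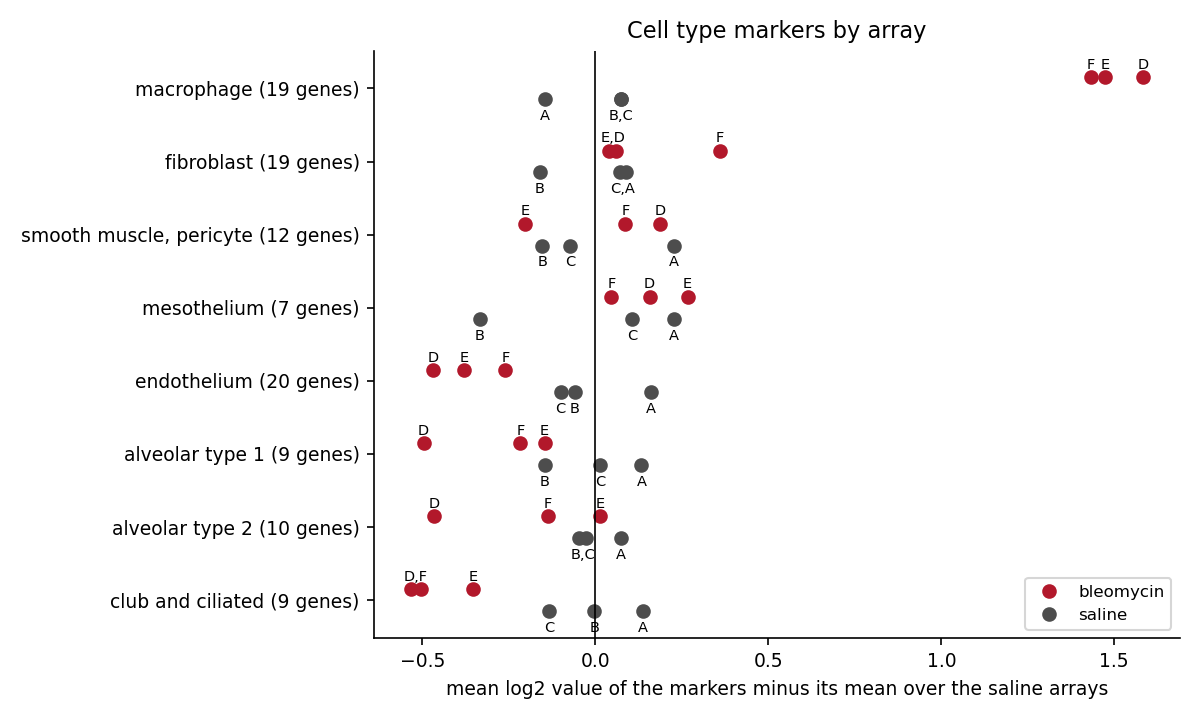
Mean log2 value of each marker list on each array, minus its mean over the saline arrays. Letters name the mice and points are arrays. Macrophage markers (10.38 to 10.53 in bleomycin and 8.80 to 9.02 in saline lungs before centring) stand apart between the groups, and fibroblast markers overlap.

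The genes whose pattern over the 6 arrays lay closest to Igf1 were found by the root mean square difference between gene-centred log2 values. They were C3ar1, the receptor for complement C3a (0.18 log2 units), Fn1, which encodes fibronectin (0.20), Eln, which encodes elastin (0.23), Csf2rb2 (0.23) and Cep55 (0.24). C3ar1 stood at 8.75, 8.38 and 8.69 in bleomycin lungs D, E and F, against 6.35, 6.30 and 6.62 in saline lungs A, B and C. As with Igf1, bleomycin D was the highest of all lungs and saline B the lowest. For Igfbp3 the closest were Prkg2 (0.32), Cyp4b1 (0.35), Clec14a (0.36), Slc7a10 (0.40) and Myh7 (0.41). Prkg2, a cGMP-dependent kinase, stood at 6.66, 6.75 and 7.29 in bleomycin lungs, against 8.13, 7.94 and 8.14 in saline lungs. This measure takes in the size of the group difference, and it is given as a description over 6 arrays.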

How the data were processed

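Each whole-lung RNA was hybridised to an Affymetrix MOE430A array. The deposited values are log2 expression from RMA with quantile normalization by the authors, per the submitters' processing notes and the design text. For RMA, no software version is given in the sources used here. A largest value of 14.42 set the base of the log. The table held 22690 probe sets, and 64 control probe sets were left out. Of 22626 tested, 20380 had 1 gene symbol (20351 matched to RefSeq by Entrez ID), 691 had several and 1555 had none listed here. Where a gene had several probe sets, the brightest on average was read.

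Bleomycin was compared with saline by limma 3.58.1 in R 4.3.3 (lmFit, eBayes, no covariates), with Benjamini-Hochberg adjustment over all tested probe sets and a threshold of 0.05. Intervals are at 95%. Differences between the brightest and each other probe set of a gene were fitted over 7987 pairs. Both fits were checked on simulated data. For pairs, the simulated shift was larger than any pair difference found among the 10 genes. That check does not show whether differences of their size would pass. Alternatives left out probe sets under 6 in both groups, used a trended robust prior or array weights, centred on 32 ribosomal protein genes, repeated quantile normalization, averaged probe sets, set a threshold of 0.01 or left out each array. Marker counts with an array left out were added after seeing the data. Plots used matplotlib 3.10.9 in Python 3.11.15. The series' design text gives 3 mice per group.

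The members and lists were chosen with earlier results of these data known. From each pathway list the called genes with the largest differences were named (up to 4), or the largest difference where none passed, and from the marker lists the 2 brightest. For the largest rise and fall among the 10 genes, the 5 closest genes were named. Pappa, Insr, Grb2, Mest, Plagl1, Ndn, Slc38a4, Rgs5, Aif1, Xist and Eif2s3y were named after their values were seen. So were the fibroblast markers Col1a1, Col3a1, Col1a2, Lum, Ces1d and Tcf21.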

Additional observations from a re-analysis of the deposited data

How the results depend on the processing

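Leaving out each array in turn gave 1 to 2 of the 10 genes higher (3 with all arrays) and 1 to 2 lower (2 with all arrays), and 3 to 7 pathway genes higher (6) and 0 to 4 lower (3). At an adjusted p of 0.01, 1 of the 10 genes was higher and 0 lower, and 3 pathway genes were higher and 0 lower. Pathway genes lower were 5 with array weights, 5 after quantile normalization was repeated and 5 with probe sets averaged. Differences of genes that did not pass changed sign for Igf2r (0.07 with array weights, and -0.19 to 0.12 with an array left out, the highest without bleomycin D) and Igfbp5 (0.01 without bleomycin D, 0.24 without saline A, 0.13 without saline C, in a range of -0.50 to 0.24). Igf1 passed under all 13 alternatives, with differences of 1.92 to 2.31. Igfbp3 passed under 12 of 13, with differences of -1.68 to -1.24, and missed only the threshold of 0.01 (adjusted p = 0.0127). Of the 7 genes with more than 1 probe set, 0 had a pair whose differences passed as unlike with all arrays, and 0 under the 11 alternatives run. A pair that did not pass is not thereby shown to agree. Centring on ribosomal protein genes moved the median of all genes by -0.022 log2 units. No paired analysis was possible because each array has a letter of its own, with none shared between the groups. Fits with 1 array left out have fewer arrays and less power. Scanner files and detection calls are not used here, so signal over background could not be examined, and the dim probe sets of Igf2 and Esm1 and the low bleomycin values of Igfbp3 are limited by this.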
